A study of Mus musculus with 2 samples.

Results

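Voltage-gated calcium and sodium channel subunits were taken as the genes whose symbol begins with Cacna1, Cacna2d, Cacnb or Cacng, or is Scn followed by a number and a or b. This gave 39 of the 23284 gene symbols in the count files: 10 calcium channel pore subunits, 4 alpha2delta, 4 beta and 8 gamma subunits, 9 sodium channel pore subunits and 4 sodium channel beta subunits. Expression was measured by RNA-seq in the only group of the series, GFP-positive cells sorted from dissociated whole pancreas of mouse embryos at stage e15.5. The embryos carried the NGN3-EGFP reporter on a mixed C57BL6 background, and the series' title calls the cells pancreatic endocrine progenitors. The sources used here do not say how the reporter allele was built, nor how many embryos were pooled. The 2 libraries, replicates 1 and 2, held 12495143 and 12043734 counted reads. With a single group there was no contrast between conditions, and the difference between the libraries, which may be technical, is the only error that can be given.

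A voltage-gated calcium channel is built around 1 pore subunit, a long protein with 4 repeated domains that holds the voltage sensors and the calcium-selective pore. Beta subunits bind the pore subunit from the cytoplasm, alpha2delta subunits lie outside the membrane, and both raise the number of channels at the cell surface. L-type and P/Q-, N- and R-type channels open at strong depolarisation and pair with these subunits, whereas T-type channels open near the resting potential and can work without them. Sodium channels have a pore subunit of the same plan and beta subunits with a single membrane span. In mature islets calcium entry through these channels triggers hormone release from granules, and sodium channels shape the action potential.

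Levels are given as counts per 1000000 reads (CPM) on TMM-scaled library sizes, and levels of different genes are compared as CPM per kb of exon (RPKM). A gene was taken as detected at 1 CPM in both libraries. Of the 39 subunit genes 14 were detected, or 35.9%, against 45.7% of all genes in the files. The detected members had a median of 41.7 CPM, against 37.3 CPM over all detected genes. Taking the genes at 1 CPM in 1 library alone, the medians were 22.9 CPM for members and 30.9 CPM for all genes in replicate 1, and 30.8 and 28.9 CPM in replicate 2, so the order depended on the library. A further 8 members reached 1 CPM in 1 library only, 4 in each, 11 had between 1 and 9 reads in all, and 6 had no read. Each library averages over many sorted cells, so fewer cells of a type and less RNA per cell cannot be told apart.

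Cacna1a, Cacna1h and Cacna2d1 held 75.6% of the reads of all members in replicate 1 and 68.0% in replicate 2. All 3 lay above 200 CPM in each library. Per kb of exon they stood above 88.8%, 81.8% and 86.8% of detected genes. Sodium channel transcripts were lower: the summed level of the 9 pore subunits was 10.1 RPKM in replicate 1 and 7.82 RPKM in replicate 2. The 10 calcium pore subunits summed to 91.1 and 106 RPKM, which was 9.0-fold and 13.5-fold more. On coding length these ratios fell to 6.69 and 9.51.

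**Figure D1:**
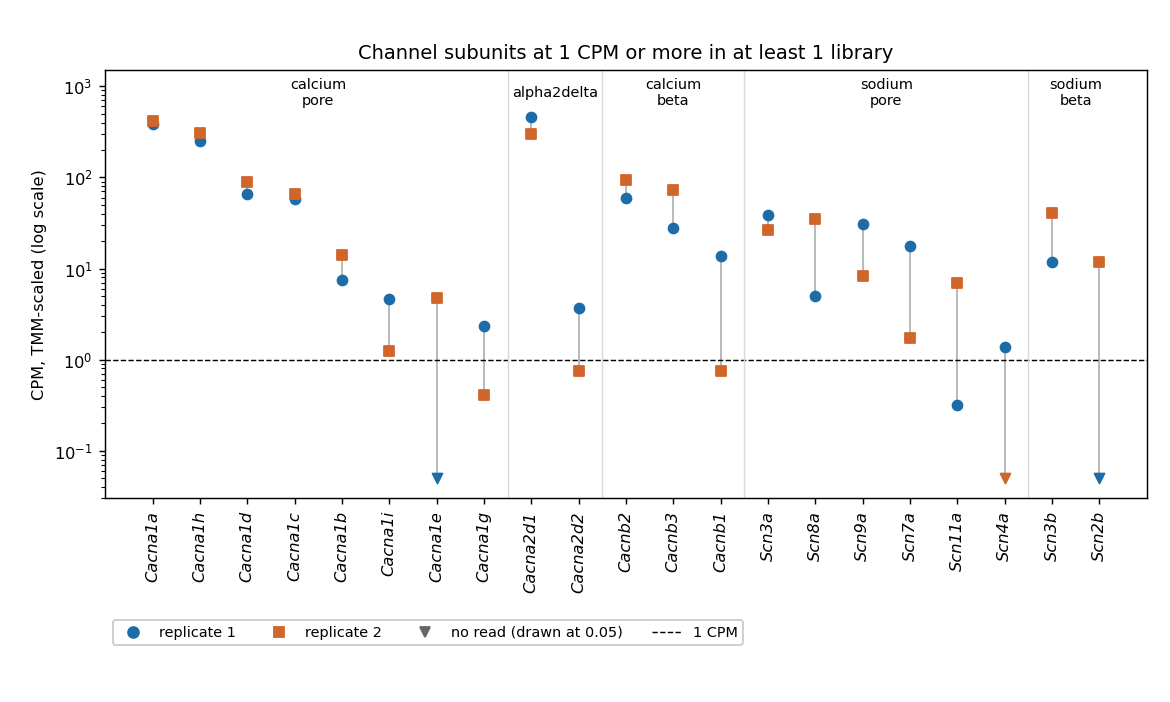
TMM-scaled CPM (log axis) of named channel subunit genes at 1 CPM or more in at least 1 library, with a circle for replicate 1 and a square for replicate 2 joined by a line, and triangles for a library without a read. Cacna1a, Cacna1h and Cacna2d1 lie above 200 CPM in each library with short lines, while members under 10 CPM have long lines.

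Transcripts of P/Q-, N- and R-type pore subunits made up 53.7% of all calcium pore transcripts per kb in replicate 1 and 51.6% in replicate 2, and nearly all of it was Cacna1a. Cacna1a encodes the pore of the P/Q-type channel, known from presynaptic terminals, where it triggers transmitter release. It had 381 and 419 CPM in replicates 1 and 2, or 50.5 ± 3.34 RPKM (SD, n = 2), with reads in both libraries close to each other. Cacna1b, the N-type pore of nerve terminals, had 7.40 and 14.1 CPM in replicates 1 and 2, or 1.10 ± 0.49 RPKM (SD, n = 2). Cacna1e, the R-type pore, had no read in replicate 1 and 57 reads in replicate 2, or 4.71 CPM. Taking 3 counts as the upper limit for no read, the level in replicate 2 was 19.5-fold that limit. This ratio leaves out the counting error of replicate 2. Cacna1a lay above each of the other 9 calcium pore subunits in both libraries.

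T-type transcripts were the next group, with 34.0% and 35.0% of calcium pore transcripts per kb in replicates 1 and 2. Cacna1h had 249 and 303 CPM in replicates 1 and 2, or 33.5 ± 4.65 RPKM (SD, n = 2). Cacna1a exceeded it per kb in both libraries, 1.59-fold and 1.43-fold. The order was the same in both libraries when exon lengths came from all annotated transcripts, at 1.31-fold and 1.18-fold. An order seen in 2 libraries can reach no exact permutation p smaller than 0.5. The other T-type pores were scarce. Cacna1i had 4.58 and 1.24 CPM in replicates 1 and 2, and Cacna1g had 29 reads in replicate 1 and 5 in replicate 2. Both were higher in replicate 1, whereas Cacna1h was higher in replicate 2.

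L-type transcripts made up 12.3% and 13.4% in replicates 1 and 2, shared by Cacna1d and Cacna1c, the L-type pores of neurons, heart and endocrine cells. Cacna1d had 66.5 and 88.9 CPM in replicates 1 and 2, or 8.65 ± 1.77 RPKM (SD, n = 2). Cacna1c was at 58.0 and 65.6 CPM, or 4.06 ± 0.35 RPKM (SD, n = 2). Cacna1d was above Cacna1c per kb in both libraries, 1.94-fold and 2.30-fold. On coding length this fell to 1.17-fold and 1.38-fold. Cacna1f, the pore of retinal channels, and Cacna1s, the pore of skeletal muscle, had no read in either library. The limit of 3 counts puts both genes under 0.24 and 0.25 CPM in replicates 1 and 2. The basic exon set places 6.54% of Cacna1d exon bases opposite exons of Chdh. The strand setting of the counts is not given, so a part of the Cacna1d reads could belong to Chdh. The same limit holds for smaller overlaps of other detected members: Cacnb2 (5.25%), Cacna1a (2.89%), Cacna1h (1.92%) and Scn9a (1.8%).

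The 2 RefSeq start sites of Cacna1d are shown here because their upstream sequence differs in kind, although the counts per gene do not tell which start was used. Both run 5′ to 3′ on the minus strand of build GRCm38.p6, 250 bases up to the start, with GC boxes (GGGCGG or its reverse complement), CCAAT and TATAAA in capitals, searched on both strands and allowed to overlap. The first by chromosome coordinate lies at chr14:30353487-30353736. The other, at chr14:30491157-30491406, lies upstream of it in the direction of the gene.
Cacna1d, first start: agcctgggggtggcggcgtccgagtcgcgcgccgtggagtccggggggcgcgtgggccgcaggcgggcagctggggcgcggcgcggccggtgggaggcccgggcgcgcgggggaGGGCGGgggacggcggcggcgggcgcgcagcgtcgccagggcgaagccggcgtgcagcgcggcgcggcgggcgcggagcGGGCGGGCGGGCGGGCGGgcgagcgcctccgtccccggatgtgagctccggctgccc
Cacna1d, other start: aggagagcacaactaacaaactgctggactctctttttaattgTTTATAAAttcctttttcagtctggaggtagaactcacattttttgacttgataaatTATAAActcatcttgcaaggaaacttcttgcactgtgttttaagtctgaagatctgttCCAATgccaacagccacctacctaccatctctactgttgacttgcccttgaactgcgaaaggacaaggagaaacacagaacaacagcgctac
The first holds 5 GC boxes and 50 CG dinucleotides. The other holds no GC box, 2 CG dinucleotides, 1 CCAAT and 3 matches to TATAAA, 2 of which overlap on opposite strands. Of 32851 RefSeq windows of this length 32.7% hold a GC box, 33.8% CCAAT and 12.4% TATAAA, and their median is 6 CG dinucleotides.

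Among alpha2delta subunits Cacna2d1 was nearly alone. It had 455 and 297 CPM in replicates 1 and 2, or 44.9 ± 13.3 RPKM (SD, n = 2), and made up 98.7% and 99.5% of alpha2delta transcripts per kb. Of the 3 most abundant members it was the only one higher in replicate 1, where it stood at 1.13-fold the level of Cacna1a per kb. In replicate 2 it stood at 0.67-fold. On coding length the ratios were 2.56 and 1.52, so the order of the pair depended on the library and the length used. Cacna2d2 had 3.70 and 0.74 CPM in replicates 1 and 2. Cacna2d3 had 3 reads, all in replicate 2, and Cacna2d4 had 5, all in replicate 1. The 250 bases before the RefSeq start of Cacna2d1, shown because it nearly alone makes up this class, lie at chr5:15934441-15934690 on the plus strand of GRCm38.p6. GC boxes are again in capitals.
Cacna2d1: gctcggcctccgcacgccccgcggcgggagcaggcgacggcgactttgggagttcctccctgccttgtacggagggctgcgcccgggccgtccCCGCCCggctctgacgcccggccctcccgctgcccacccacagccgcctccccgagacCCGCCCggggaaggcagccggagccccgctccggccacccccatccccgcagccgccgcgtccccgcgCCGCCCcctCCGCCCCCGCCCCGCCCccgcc
It holds 6 GC boxes, 36 CG dinucleotides and neither CCAAT nor TATAAA.

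Beta subunits were represented by Cacnb2 and Cacnb3, both higher in replicate 2. Cacnb2 had 59.2 and 93.1 CPM in replicates 1 and 2, or 15.8 ± 4.96 RPKM (SD, n = 2). Cacnb3 was at 28.1 and 73.1 CPM, or 17.1 ± 10.7 RPKM (SD, n = 2). Their order per kb was not settled: Cacnb2 was 1.29-fold above Cacnb3 in replicate 1 and at 0.78-fold its level in replicate 2. With exon lengths from all transcripts Cacnb2 was the lower one in both libraries, at 0.64-fold and 0.39-fold. Without length correction Cacnb2 was the higher one in both, at 2.11-fold and 1.27-fold, and on coding length it was at 1.56-fold and 0.94-fold. Cacnb1, the beta subunit of skeletal muscle that other tissues also express, had 13.8 and 0.74 CPM in replicates 1 and 2, with exact 95% Clopper-Pearson bounds of 11.8 to 16.1 and 0.34 to 1.41 CPM. Replicate 1 was thus 18.6-fold higher. Cacnb4 had no read in replicate 1 and 9 in replicate 2. Beta subunits summed to 0.28-fold and 0.42-fold of the calcium pore subunits per kb in replicates 1 and 2, and alpha2delta subunits to 0.60-fold and 0.34-fold. On coding length the beta ratios were 0.51 and 0.77 and the alpha2delta ratios 1.26 and 0.70, and without length correction the beta ratios were 0.13 and 0.19.

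None of the 8 gamma subunits was detected. This family holds the gamma subunit of the skeletal muscle calcium channel and the proteins that escort AMPA-type glutamate receptors in the brain. Cacng1 and Cacng6 had no read. The other 6, Cacng2, Cacng3, Cacng4, Cacng5, Cacng7 and Cacng8, had none in replicate 1 and between 1 and 8 in replicate 2.

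**Figure D2:**
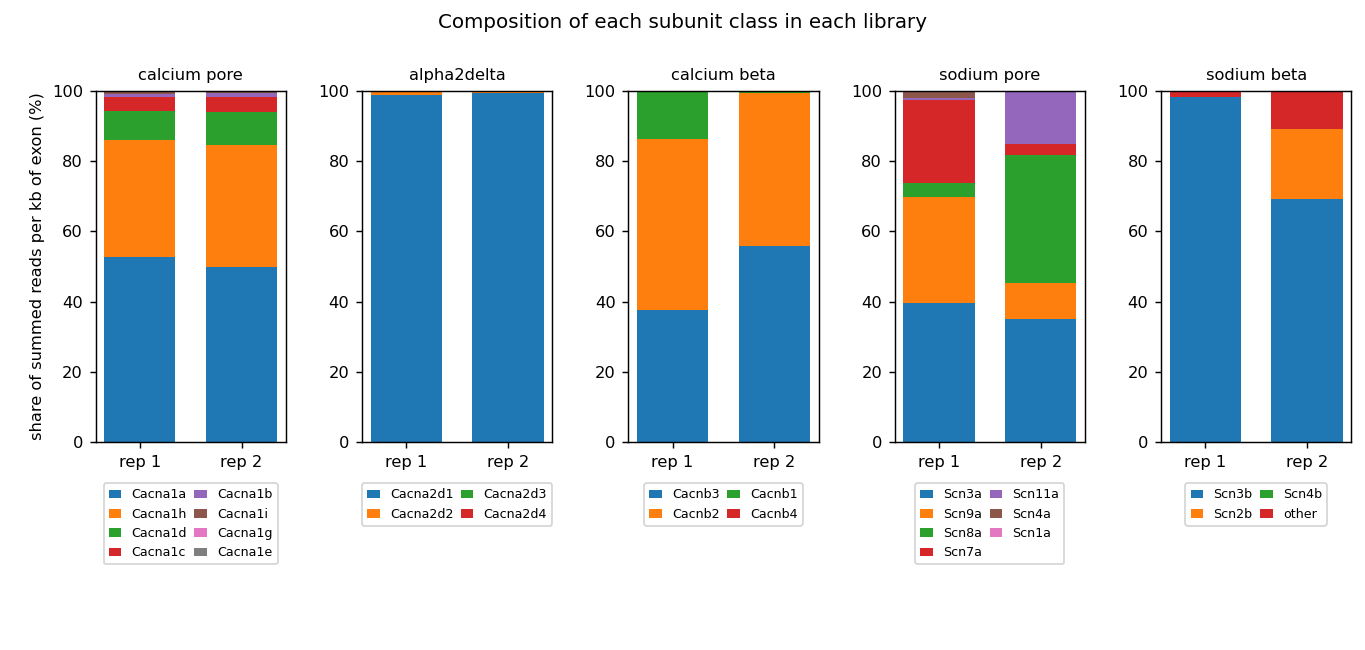
Share (%) of the summed reads per kb of exon that each member holds within its subunit class, with 1 stacked bar per library and "other" for what is not named. In the calcium pore and alpha2delta classes the bars of both libraries look alike, led by Cacna1a at 52.8% and 49.9% and by Cacna2d1 at 98.7% and 99.5%, whereas in the sodium pore class Scn8a takes 4.0% in replicate 1 and 36.4% in replicate 2.

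Scn3a, the sodium channel pore best known from the embryonic brain, was the sodium pore transcript closest between the libraries. It had 38.9 and 26.5 CPM in replicates 1 and 2, or 3.37 ± 0.90 RPKM (SD, n = 2), and made up 39.7% and 35.0% of sodium pore transcripts per kb. Per kb Cacna1a exceeded it 12.0-fold and 19.3-fold, and on coding length 8.06-fold and 13.0-fold. The rest of the class had a different make-up in each library. Scn9a, a pore of peripheral sensory and sympathetic neurons, had 30.5 and 8.18 CPM in replicates 1 and 2. Scn7a, an atypical member tied to the sensing of sodium, had 17.6 and 1.74 CPM in replicates 1 and 2, with bounds of 15.3 to 20.1 and 1.07 to 2.65 CPM. Both were thus higher in replicate 1, by 3.72-fold and 10.1-fold.

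Scn8a, the pore at the nodes of myelinated axons, went the other way. It had 4.98 and 35.1 CPM in replicates 1 and 2, a 7.05-fold difference. Per kb it stood at 0.10-fold the level of Scn3a in replicate 1 and 1.04-fold in replicate 2. Scn11a, a pore of pain-sensing neurons, had 4 reads in replicate 1 and 84 in replicate 2, or 6.94 CPM. Scn4a, the pore of skeletal muscle, had 17 reads in replicate 1 and none in replicate 2. Its level in replicate 1 was 5.51-fold the limit of 3 counts, leaving out the counting error of replicate 1. Scn1a had 1 read, in replicate 2, and Scn10a, another pore of pain-sensing neurons, had none. The order of sodium pore subunits per kb therefore differed between the libraries, with Scn3a highest in replicate 1 and Scn8a, by a small margin over Scn3a, in replicate 2.

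The files spell the gene now called Scn2a as Scn2a1, which the rule for symbols leaves out. It had 5 reads in replicate 1 and 43 in replicate 2, or 3.55 CPM, and was also higher in replicate 2. In the RefSeq gene order Scn3a neighbours Scn2a, and Scn1a, Scn9a and Scn7a follow each other, all on chromosome 2. Of these neighbours Scn9a and Scn7a were both higher in replicate 1, as was Scn3a, whereas Scn2a1 was higher in replicate 2. Of the 25-base words in the transcripts of Scn3a 85.8% occur in no other gene, against 91.1% for Scn9a, 97.6% for Scn8a and 97.3% for Cacna1a. For Scn2a1 the share is 84.4% and for Scn1a 88.1%. How reads with several matches were counted is not given, so of these genes Scn2a1, Scn3a and Scn1a have the less certain levels.

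Among sodium channel beta subunits, which tune gating and act in adhesion, Scn3b and Scn2b were higher in replicate 2. Scn3b had 11.7 and 40.3 CPM in replicates 1 and 2, or 5.76 ± 4.47 RPKM (SD, n = 2), and led the class with 98.2% and 69.2%. Scn2b had no read in replicate 1 and 144 in replicate 2, or 11.9 CPM. That level was 49.4-fold the limit of 3 counts, leaving out the counting error of replicate 2. Scn4b had 1 read, in replicate 2. Beta subunits summed to 0.26-fold of the sodium pore subunits per kb in replicate 1 and 1.65-fold in replicate 2. The order of these classes depended on the length used: the ratios were 1.12 and 6.28 on coding length, and 0.13 and 0.70 without length correction.

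How far replicate 2 departed from replicate 1 was tested gene by gene, by a two-sided exact binomial test with Benjamini-Hochberg adjustment over 13416 genes with at least 10 reads. This compares 2 libraries, not conditions. All 22 members tested differed beyond counting error, against 85.8% of all genes tested, 13 of them higher in replicate 2 (44.1% of all genes) and 9 in replicate 1 (41.7%). A difference over 2-fold was seen for 14 of the 22, against 48.2% of all genes. Of these 7 were higher in replicate 2 and 7 in replicate 1, against 25.9% and 22.3% of all genes. The 6 members with the highest mean CPM all differed by less than 2-fold. Cacna1a was 1.10-fold higher in replicate 2 (exact binomial test, adjusted p = 5.35e-06), Cacna1c 1.13-fold (adjusted p = 0.020), Cacna1h 1.22-fold (adjusted p = 1.46e-15), Cacna1d 1.34-fold (adjusted p = 4.95e-10) and Cacnb2 1.57-fold (adjusted p = 1.60e-21). Cacna2d1 was 1.53-fold higher in replicate 1 (adjusted p = 5.32e-90).

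The spread followed the level. Of the 3 members at 100 CPM or more none differed over 2-fold, against 11.9% of all genes at that level. Between 10 and 100 CPM 4 of 9 members did, namely Cacnb3, Scn3b, Scn8a and Scn9a, or 44.4% against 43.1% of all genes. Between 1 and 10 CPM all 9 members did, against 75.5% of all genes. Of these 9, 7 reached 1 CPM in 1 library only, and the small numbers of members limit what these shares show.

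**Figure D3:**
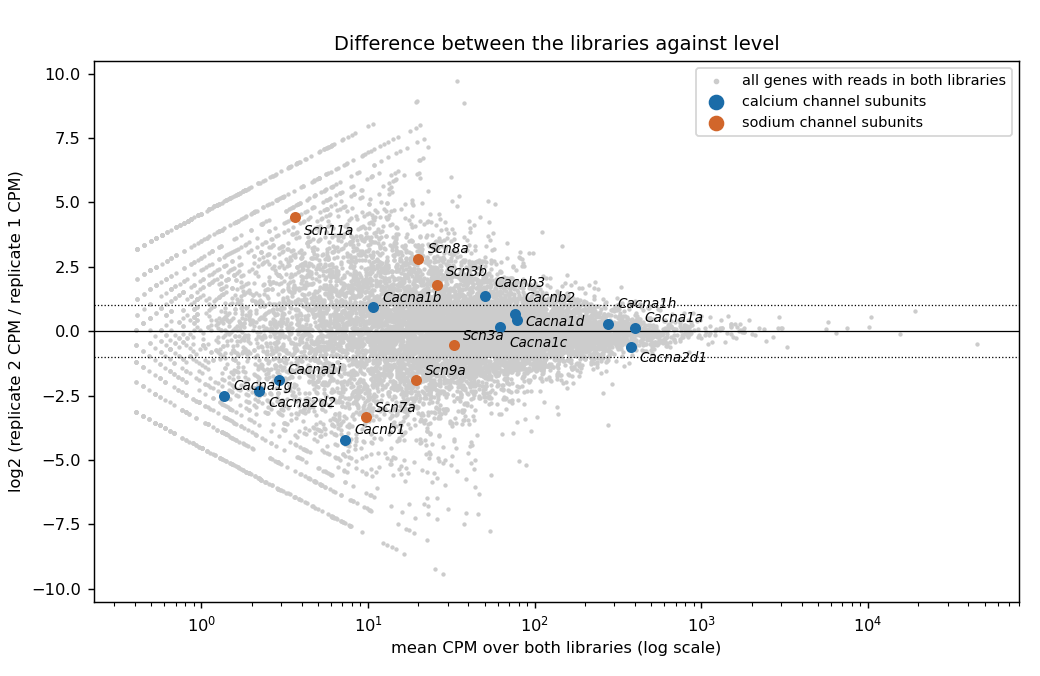
Log2 ratio of replicate 2 over replicate 1 against mean CPM (log axis) for all genes with reads in both libraries (grey), named calcium channel subunits (blue) and named sodium channel subunits (orange), with dotted lines at 2-fold. Cacna1a, Cacna1h and Cacna2d1 lie between the dotted lines at the right, and Scn8a, Scn3b, Scn9a and Scn7a lie outside them on both sides.

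Markers of other cell types also moved between the libraries. All 14 endocrine markers were detected, and their levels summed to 39813 and 55638.5 CPM in replicates 1 and 2, led by the hormone genes Gcg, Ins1 and Ins2. Their medians were 763 and 732 CPM, and of 12 that differed 8 were higher in replicate 2 and 4 in replicate 1 (Neurog3, Neurod1, Nkx2-2 and Insm1). The 8 mesenchymal markers were all higher in replicate 1, with sums of 422 and 138 CPM. Of the 22 channel genes tested 9 were higher in replicate 1, against 41.7% of all genes tested. These 9 were Cacna1g, Cacna1i, Cacna2d1, Cacna2d2, Cacnb1, Scn3a, Scn4a, Scn7a and Scn9a. Acinar markers summed to 1631 and 1226 CPM and duct markers to 674 and 619.9 CPM, and in each list 4 of 5 markers that differed were higher in replicate 1. None of 7 endothelial markers was detected in both libraries, with Cdh5 at 15.6 and 0.17 CPM and Esam with no read in replicate 1 and 4.46 CPM in replicate 2. Of 14 markers of neural crest, glia and neurons 5 were detected, among them Ret, Nefm, Th and Nefl, with sums of 379 and 319 CPM in replicates 1 and 2. Another 7 had no read, among them Foxd3, and Sox10 had 5 reads in replicate 2. Of 12 muscle markers 1 was detected, with sums of 6.99 and 19.9 CPM in replicates 1 and 2, most of the latter from Acta1 with no read in replicate 1 and 199 in replicate 2. Des went the other way, with 56 reads in replicate 1 and none in replicate 2. Myog and Ckm had none. The part of such cells in the levels of single channel genes was not tested. Marker calls stand against the 85.8% of all genes that differed, 44.1% higher in replicate 2 and 41.7% in replicate 1. The numbers of markers detected stand against 45.7% of all genes.

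Genes that work with these channels were taken from lists. Of 18 calcium channel partners 8 were detected, and of 10 tested 5 were higher in replicate 2 and 4 in replicate 1. The active zone genes Rimbp2 and Rims2, whose proteins tether calcium channels near vesicles, were at 276 ± 14.4 and 190 ± 123 CPM (SD, n = 2). Rims2 was higher in replicate 1, at 277 against 103 CPM. Calm2, which encodes calmodulin, was at 1445 ± 412 CPM. Akap7, which anchors protein kinase A, had 6.35 and 39.1 CPM in replicates 1 and 2.

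Of 11 sodium channel partners 8 were detected, and of 9 tested 4 were higher in replicate 2 and 3 in replicate 1. The ubiquitin ligase genes Nedd4 and Nedd4l were at 1382 ± 276 and 344 ± 29.1 CPM (SD, n = 2). Ank3 and Nfasc, an ankyrin and a neurofascin that hold sodium channels in place on axons, were at 173 ± 32.4 and 170 ± 0.20 CPM. Ank2, another ankyrin, had 22.2 and 126 CPM in replicates 1 and 2. Per kb, Ank3 was at 13.9 ± 2.61 and Nfasc at 15.9 ± 0.02 RPKM (SD, n = 2), against 3.37 RPKM for Scn3a. Ank2 was at 1.26 RPKM in replicate 1, below Scn3a there, and at 7.13 RPKM in replicate 2. Fgf12 and Cntn1, detected partners picked after their mean values were seen to lie below that of Scn3a, were at 2.71 and 1.63 RPKM. In replicate 1 they were at 2.51 and 0.24 RPKM, below Scn3a at 4.01 RPKM. In replicate 2 the order turned, with 2.91 and 3.02 RPKM against 2.74 RPKM for Scn3a. Fgf14, another detected partner, lay above Scn3a in both libraries, at 8.48 and 3.14 RPKM in replicates 1 and 2.

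Of 24 genes for calcium stores, pumps and exchangers 18 were detected, and of 21 tested 13 were higher in replicate 2 and 6 in replicate 1. The endoplasmic reticulum pumps Atp2a2 and Atp2a3 were at 1500 ± 205 and 404 ± 103 CPM and the store release channel Itpr1 at 360 ± 85.6 CPM (SD, n = 2). The plasma membrane pumps went opposite ways, with Atp2b1 at 466 and 112 CPM and Atp2b4 at 21.1 and 146 CPM in replicates 1 and 2. Of 15 other channel genes 9 were detected, and of 13 tested 4 were higher in replicate 2 and 6 in replicate 1. The ATP-sensitive potassium channel subunits Abcc8 and Kcnj11 were at 1212 ± 16.9 and 165 ± 104 CPM. Unc80, an accessory subunit of the sodium leak channel, had 138 and 174 CPM in replicates 1 and 2, and the cation channel gene Trpm7 was at 71.5 ± 51.0 CPM.

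Of 17 calcium effectors 16 were detected, and of 17 tested 11 were higher in replicate 2 and 4 in replicate 1. The calcineurin subunits Ppp3r1 and Ppp3cb were at 201 ± 22.1 and 193 ± 8.54 CPM (SD, n = 2), and Nfatc2 and Nfatc3, transcription factors that calcineurin activates, at 214 ± 30.1 and 201 ± 53.2 CPM. Nfatc4 had 37.0 and 6.20 CPM in replicates 1 and 2. Calls in either direction in these lists stand against the 85.8% of all genes that differed, 44.1% higher in replicate 2 and 41.7% in replicate 1. The numbers detected stand against 45.7% of all genes.

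**Figure D4:**
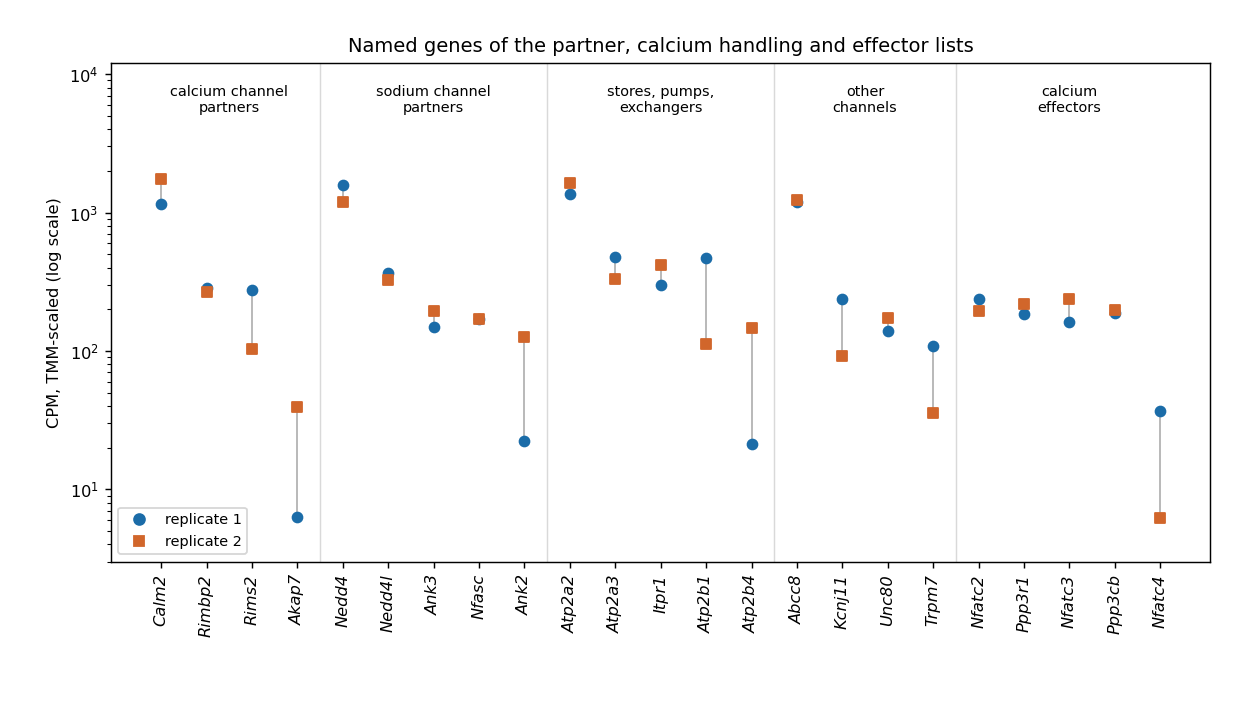
TMM-scaled CPM (log axis) of the named genes of 5 lists, with a circle for replicate 1 and a square for replicate 2. Calm2, Nedd4, Atp2a2 and Abcc8 lie at 1154 CPM or more in each library, while Akap7, Ank2, Atp2b1, Atp2b4 and Nfatc4 differ over 4-fold between the libraries.

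The start-site windows of the members were compared by their CG content, a feature the rule did not use. RefSeq windows of 300 bases (GRCm38.p6) were found for 29 of the 39 members, 39 windows in all. Among those not matched were Cacna1a, Cacna1g, Cacna1h, Cacna2d4, Cacng1, Cacng4, Scn3a and Scn3b. A window with a ratio of observed to expected CG of at least 0.6 was found for 8 of 10 detected members, all but Scn7a and Scn9a. It was found for 8 of the other 19 members. Those 19 include the 4 without a read (Cacna1f, Cacna1s, Cacng6 and Scn10a), none of which had such a window. A gene counted if any of its windows passed, and the 10 detected members had 16 windows against 4 windows for these 4. Over all 27025 genes with a window, detected or not, the share was 38.4%. The share over detected genes alone was not computed. An E box (CANNTG, either strand), the site of basic helix-loop-helix factors as a class, was present in 69.2% of the members' windows and in 72.3% of all windows. These are descriptions of sequence and show no binding.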

How the data were processed

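Per library, the authors deposited 1 file of unnormalized read counts for each gene symbol. TopHat2 2.0.4, Cufflinks 2.0.2, cutadapt, FastQC and DESeq, with build mm9, are listed without roles in the submitters' processing notes; counting program, annotation and strand setting are not stated there. Counts were scaled with TMM factors (0.9956 and 1.0044) from edgeR 4.0.16 in R 4.3.3. Exon lengths came from GENCODE M21 basic transcripts (GRCm38, not the build of the counts), matched for 97.9% of symbols, and served for lengths and shared words only. Reads were compared between libraries by the exact binomial test. It was tested on simulated data with known fold changes and counting error only. That is the error the test assumes, so the simulation does not show how it behaves on these libraries. One group permits no quasi-likelihood test. Intervals are exact Clopper-Pearson at 95%, and they and the 3-count limit (0.24 and 0.25 CPM) cover counting error only. Counts and sums cover all members and listed genes, but some are not reported here by name. Named were the other members, up to 4 leading genes of each partner list, and list genes over 4-fold apart at 20 CPM or more. Fgf12, Fgf14 and Cntn1 were named outside this rule, for comparison with Scn3a. Members and lists were chosen with earlier results of these data known. Nothing in the sources says that the samples came from separate animals, so p-values measure only these libraries. Alternatives were plain totals, DESeq2 1.42.0 size factors, totals without the 10 most abundant genes, other detection and read limits, other lengths, Scn2a1 added and each library left out.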

Additional observations from a re-analysis of the deposited data

How the results depend on the processing

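The number of detected members was 14 and ranged from 11 at a limit of 5 CPM to 16 at 0.5 CPM, and was 18 with either library left out. The number of members differing between the libraries was 22 under each scaling, 24 without a read limit and 19 with at least 50 reads. The median of the detected members (41.7 CPM) was 61.8 CPM at a limit of 5 CPM, and 22.9 CPM without replicate 2 and 30.8 CPM without replicate 1. Shares of pore transcripts depended on the length used. With exon lengths from all transcripts, coding length and no length correction, the P/Q-, N- and R-type share (52.6%) was 49.0%, 49.0% and 49.7%, the share of Cacna1a (51.4%) was 47.4%, 47.4% and 48.1%, and the T-type share (34.5%) was 38.8%, 33.3% and 33.6%. The share of Cacna1h (34.0%) was 38.2% with all transcripts and 32.7% on coding length. The L-type share (12.9%) was 17.7% on coding length and 16.7% without length correction. The share of Cacnb2 among beta subunits (46.2%) was 29.2%, 50.8% and 57.0% with the 3 settings. The share of Scn8a was 4.0% without replicate 2 and 36.4% without replicate 1, that of Scn9a 30.0% and 10.4%. Ratios between genes and classes with other lengths, chosen after seeing the data, are given beside several of those ratios but not all. The direction between the libraries was the same for all 14 detected members under the 3 other scalings. No paired analysis was possible because the series has 1 group. Levels under 10 CPM rest on few reads and are the least certain.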

Other observations

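The epithelial sodium channel is not voltage-gated and shares only part of its name with the genes above. Its subunit genes were chosen after their values were seen. Scnn1a had 2.81 and 13.7 CPM in replicates 1 and 2. Scnn1b had 0.72 and 16.2 CPM in replicates 1 and 2, and Scnn1g had 1 and 11 reads. All 3 were higher in replicate 2, by 4.88-fold for Scnn1a and 22.4-fold for Scnn1b; Scnn1g had a ratio of 11.3 with an exact 95% counting interval of 1.64 to 487.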
